A study of Homo sapiens with 35 samples.

Results

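The MHC class I antigen presentation genes described here are B2M, HLA-E, TAP1, TAP2, TAPBP, PSMB8, PSMB9, PSMB10, NLRC5 and IRF1. They were chosen by name, with earlier results of these data known. They are the entries of the deposited gene table that carry 1 of these 10 symbols. All 10 were found among 28503 entries, each as an entry of its own, marked as quantified in 6 of 6 libraries, and all 10 passed the filter on low counts that left 15867 genes to be tested. RNA was sequenced from DU145, a human prostate cancer line that was established from a metastasis in the brain. The controls were cells with a short hairpin RNA targeting luciferase (shLuciferase). The others had a hairpin against ZMYND8 (shZMYND8), a chromatin protein that binds modified histone tails, or against JARID1D (shJARID1D), a histone H3 lysine 4 demethylase encoded by KDM5D. Each group had 2 libraries. The control thus shares the hairpin treatment with both knockdowns. The sources used here do not give the hairpin sequences, the time after their delivery or whether cells were cloned. No label tells whether the libraries of a group are separate cultures, so p-values measure only the spread between these libraries.

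Cells display fragments of their own proteins on MHC class I molecules, where cytotoxic T cells inspect them. The proteasome cuts proteins into peptides, and its catalytic subunits can be exchanged for the inducible subunits PSMB8, PSMB9 and PSMB10, which form the immunoproteasome. TAP1 and TAP2 together form the pump that carries peptides into the endoplasmic reticulum, and TAPBP (tapasin) holds the pump next to empty class I molecules while they are loaded. Each class I molecule pairs a heavy chain, of which HLA-E is a less variable example also read by natural killer cells, with the light chain B2M (beta-2-microglobulin). NLRC5 is the class I transactivator, a protein that acts at class I gene promoters without binding DNA itself, and IRF1 is a DNA-binding transcription factor induced by interferon.

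Library totals ran from 22925611 to 25001300 in the deposited, scaled counts and from 20735325 to 27440611 in fragments. Levels are given as CPM, each count as a share of its library total, on a common scale adjusted by the trimmed mean of M values. A gene without fragments could lie at up to 0.109 to 0.145 CPM (3 fragments, counting error only). The hairpins lowered their targets: ZMYND8 measured 64.7 and 52.7 CPM in shLuciferase and 35.5 and 33.2 CPM in shZMYND8 (log2 fold change -0.77, edgeR adjusted p = 0.00491, and 0.0581 without shZMYND8 replicate 2), and KDM5D fell by 1.67 on the log2 scale in shJARID1D (edgeR adjusted p = 0.000831). The epithelial keratins KRT8, KRT18 and KRT19 were present in every library, and 5 of 6 epithelial markers could be tested. In shZMYND8, KRT19 and EPCAM fell by 1.16 and 1.68 on the log2 scale (edgeR adjusted p = 0.00184 and 0.000546), and CDH1 had a log2 fold change of 1.01 (0.013, but 0.103 and 0.0539 without shZMYND8 replicate 1 and 2). In shJARID1D, KRT8 and KRT18 had log2 fold changes of -0.86 and -0.67 (0.0465 and 0.0349), and each call was lost in 5 of 6 fits with 1 library left out (up to 0.288 and 0.254, without shJARID1D replicate 1). The 6 epithelial markers summed to 1320 to 1861 CPM in shLuciferase, 1100 to 1221 CPM in shZMYND8 and 962.1 to 1130 CPM in shJARID1D. In contrast, KRT5 and the prostate genes KLK2 and FOLH1 had no fragments in any. The summed level of 11 leukocyte markers was 36.7 to 43.0 CPM in shLuciferase, 47.2 to 58.7 CPM in shZMYND8 and 46.0 to 46.2 CPM in shJARID1D. Most of it was CD68, a lysosomal protein that is not restricted to leukocytes, whereas CD3D, CD3E and MS4A1, which define T and B cells, were at 0 in all 6 libraries. ITGAM, a myeloid integrin, measured 0.511 and 0.471 CPM in shLuciferase, 1.37 and 1.116 CPM in shZMYND8, and 1.33 and 1.46 CPM in shJARID1D (edgeR adjusted p = 0.0435 and 0.0512 against the control). The first of these was 0.0712 to 0.256 with any 1 library left out. The summed level of 5 stromal markers was 1.28 to 2.26 CPM in shLuciferase, 5.58 to 5.65 CPM in shZMYND8 and 2.27 to 3.64 CPM in shJARID1D, with DCN at 0. The 4 endothelial markers summed to 0.468 to 0.514 CPM in shLuciferase, 1.156 to 1.159 CPM in shZMYND8 and 0.471 to 0.643 CPM in shJARID1D, and none had enough counts to be tested. Their part in the results was not tested.

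Stretches upstream of the annotated starts of 6 members are shown because they hold, in a few bases, the letters that interferon- and NF-kB-responsive factors are known to recognise. They come from RefSeq windows of 300 bases (250 before to 50 after a start, GRCh38.p14), which gave 10 windows for 8 members. NLRC5 and HLA-E were not among the matched names. Each is written 5′ to 3′ on the gene's own strand, and capitals mark motif matches on either strand. The stretches are chr15:44711367-44711477 (plus strand, B2M), chr6:32853760-32853844 (minus, TAP1), chr6:32838765-32838803 (minus, TAP2), chr6:33314079-33314140 (minus, TAPBP), chr16:67936851-67936890 (minus, PSMB10) and chr5:132490861-132490903 (minus, IRF1).
B2M: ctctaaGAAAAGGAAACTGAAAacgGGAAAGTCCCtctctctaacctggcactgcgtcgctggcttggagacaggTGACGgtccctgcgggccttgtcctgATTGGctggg
TAP1: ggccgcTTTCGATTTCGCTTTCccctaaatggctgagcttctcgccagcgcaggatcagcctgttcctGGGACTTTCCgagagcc
TAP2: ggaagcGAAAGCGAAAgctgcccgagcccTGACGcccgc
TAPBP: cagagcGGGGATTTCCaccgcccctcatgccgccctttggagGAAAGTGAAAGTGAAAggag
PSMB10: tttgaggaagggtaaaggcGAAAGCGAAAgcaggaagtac
IRF1: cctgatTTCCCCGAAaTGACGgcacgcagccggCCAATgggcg
The letters of 5 patterns were searched on both strands.

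The core of the interferon-stimulated response element (ISRE), which is GAAA, any 2 bases (NN) and GAAA again, was found in windows of 6 of the 8 matched members (B2M, TAP1, TAP2, TAPBP, PSMB8 and PSMB10), against 3.57% of all 35116 RefSeq windows. The NF-kB pattern, which is GGG, any 2 bases (NN) and TTTCC, was found in B2M, TAP1 and TAPBP, against 1.91% of all windows. The interferon-gamma-activated pattern TTCNNNGAA (GAS) was found in IRF1, PSMB8 and TAP1, against 7.66%. The shorter CCAAT box was present in 4 of the 8 (B2M, TAP1, PSMB9 and IRF1) and the letters TGACG, the core of the cyclic AMP response element, in 5 (B2M, TAP2, PSMB8, PSMB9 and IRF1), against 34.6% and 24.6% of all windows. B2M, TAP1 and TAPBP each held ISRE matches that overlap one another, and no other matches overlapped within a window. The first TAP1 window and the PSMB9 window overlap, and their CCAAT matches are the same bases, so that site is counted for both genes. TAP2, PSMB8, TAP1 and PSMB9 are consecutive protein-coding genes on chromosome 6. TAP1 and PSMB9 are read in opposite directions from starts 488 bases apart. A match describes letters in a window and shows no binding.

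**Figure D1:**
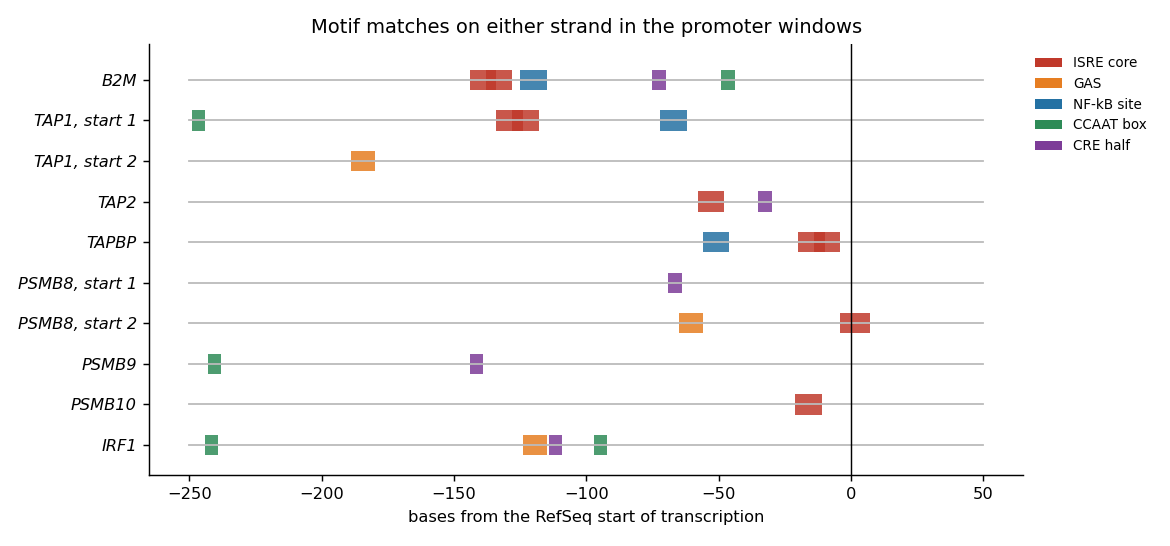
Positions of motif matches in the 10 promoter windows of 8 members, with the distance from the annotated start in bases on the horizontal axis and 1 row per window. ISRE core matches appear in 6 of the 10 windows and NF-kB matches in 3.

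With ZMYND8 lowered, the class I genes rose almost as a whole. Of the 10 members, 9 rose and none fell, and B2M did not pass the test. Of all genes tested, 8.89% rose and 7.34% fell. The members and the gene lists below were chosen with earlier results of these data known. Such shares therefore describe them and are no test. The median log2 fold change of the members was 0.99, with a range of 0.57 to 1.45, against -0.01 over all genes tested. PSMB9, NLRC5, TAP1, IRF1 and PSMB8 were at least 2-fold higher, a size that 3.75% of all genes reached while called higher. In 9 of 10 members both shZMYND8 libraries lay above both controls, which held for 30% of all genes. With JARID1D lowered, 3 of 10 rose (PSMB9, IRF1 and TAPBP), against 2.96% of all genes that rose and 2.79% that fell, with a median of 0.55 against 0.00. A bulk library cannot tell a change in every cell from a change in some of the cells.

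**Figure D2:**
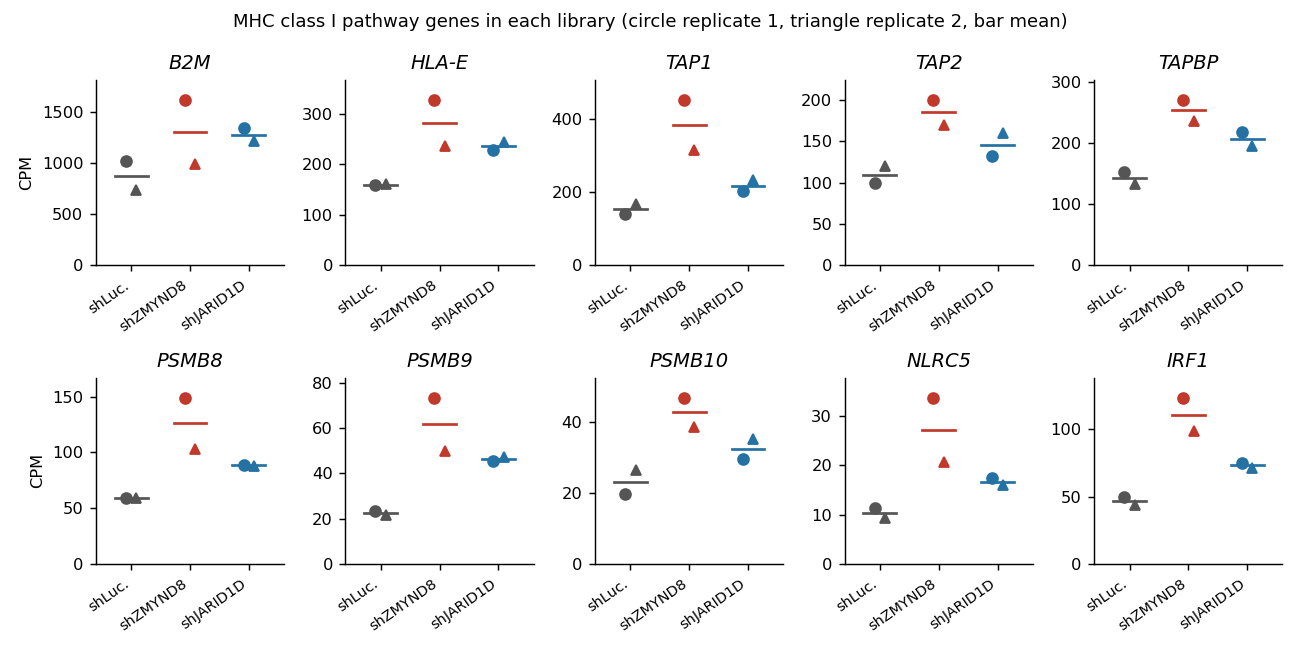
Level of each member in each of the 6 libraries, in CPM on a linear axis, coloured by group. The shZMYND8 libraries lie above both shLuciferase libraries for every member but B2M, and the shJARID1D libraries lie above the controls for all 10.

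Both regulators rose with ZMYND8 lowered. IRF1 measured 49.6 and 43.5 CPM in shLuciferase, 123.3 and 98.5 CPM in shZMYND8, and 75.1 and 71.1 CPM in shJARID1D. The groups did not overlap, and shJARID1D lay between shLuciferase and shZMYND8. IRF1 was 2.38-fold higher in shZMYND8 (log2 fold change 1.25 ± 0.14 SE, edgeR adjusted p = 0.000755) and 1.57-fold higher in shJARID1D (0.65 ± 0.14, adjusted p = 0.0297). NLRC5 measured 11.4 and 9.34 CPM in shLuciferase, 33.7 and 20.6 CPM in shZMYND8, and 17.4 and 15.9 CPM in shJARID1D. It was the member with the widest gap between shZMYND8 libraries together with B2M (1.63-fold), yet the lower of them still exceeded every other library. The log2 fold change of NLRC5 was 1.39 ± 0.22 in shZMYND8 (edgeR adjusted p = 0.00336) and 0.69 ± 0.22 in shJARID1D, which did not pass (adjusted p = 0.1).

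The peptide transporter and tapasin rose as well. TAP1 measured 139.4 and 167.2 CPM in shLuciferase, 453 and 314.9 CPM in shZMYND8, and 202.7 and 232.2 CPM in shJARID1D, so the groups did not overlap. It was 2.51-fold higher in shZMYND8 (log2 fold change 1.32 ± 0.18 SE, edgeR adjusted p = 0.0016), and its 0.50 ± 0.18 in shJARID1D did not pass (adjusted p = 0.123). Its partner TAP2, the other subunit of the pump, had a smaller log2 fold change. TAP2 measured 99.7 and 119.6 CPM in shLuciferase, 200.4 and 169.8 CPM in shZMYND8, and 131.8 and 160.0 CPM in shJARID1D, again with no overlap. Its log2 fold change was 0.76 ± 0.15 in shZMYND8 (edgeR adjusted p = 0.00864) and 0.41 ± 0.15 in shJARID1D (adjusted p = 0.13). The log2 ratio of TAP1 to TAP2 counts was 0.48 in each control library, 1.18 and 0.89 in shZMYND8, and 0.62 and 0.54 in shJARID1D. This ratio was thus 1.46-fold higher in shZMYND8 and 1.07-fold higher in shJARID1D, and no test was run on these ratios. An exact permutation test of 2 against 2 libraries gives no p under 0.333. TAPBP measured 152.1 and 133.5 CPM in shLuciferase, 270.8 and 236.7 CPM in shZMYND8, and 218.4 and 195.7 CPM in shJARID1D. Its libraries formed 3 separate groups, and it passed in both knockdowns, with 0.83 ± 0.13 (edgeR adjusted p = 0.00311) and 0.54 ± 0.13 (adjusted p = 0.0434).

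All 3 inducible proteasome subunits rose with ZMYND8 lowered. PSMB9 measured 23.5 and 21.6 CPM in shLuciferase, 73.3 and 49.9 CPM in shZMYND8, and 45.6 and 47.2 CPM in shJARID1D. It had the largest log2 fold change of the 10 members in both knockdowns, 1.45 ± 0.17 SE in shZMYND8 (edgeR adjusted p = 0.000986) and 1.04 ± 0.17 in shJARID1D (adjusted p = 0.015). PSMB8 measured 59.4 and 58.8 CPM in shLuciferase, 148.8 and 103.0 CPM in shZMYND8, and 88.5 and 88.1 CPM in shJARID1D. The control and shJARID1D pairs were each tight and lay apart, and shZMYND8 lay above both. PSMB8 rose by a log2 fold change of 1.09 ± 0.16 in shZMYND8 (edgeR adjusted p = 0.00249), and its 0.58 ± 0.16 in shJARID1D did not pass (adjusted p = 0.0663). PSMB10 measured 19.8 and 26.5 CPM in shLuciferase, 46.7 and 38.7 CPM in shZMYND8, and 29.4 and 35.2 CPM in shJARID1D. Its groups did not overlap, and its log2 fold changes were 0.88 ± 0.17 (edgeR adjusted p = 0.008) and 0.48 ± 0.17 (adjusted p = 0.126).

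The subunits that these 3 replace were not called. PSMB5, PSMB6 and PSMB7, the constitutive catalytic subunits, had log2 fold changes of 0.25 ± 0.15, 0.13 ± 0.17 and 0.16 ± 0.13 in shZMYND8 (edgeR adjusted p = 0.301, 0.656 and 0.456), and -0.09, 0.04 and 0.01 in shJARID1D. None of the 3 had an unadjusted p under 0.05 against the control in the edgeR fit of all 6 libraries. DESeq2 and limma voom called 0 of them as well. These values depended on the controls: the median log2 fold change of the 3 in shZMYND8 was 0.38 without shLuciferase replicate 2 and 0.05 without replicate 1. With 1 library left out, PSMB5 ranged from 0.07 to 0.45, PSMB6 from -0.09 to 0.38 and PSMB7 from 0.05 to 0.27. The ratio of inducible to constitutive counts within a library does not depend on library size. The log2 ratio of PSMB9 to PSMB6 was -3.08 and -3.67 in shLuciferase, -1.85 and -2.34 in shZMYND8, and -2.22 and -2.54 in shJARID1D. The ratio was 2.42-fold higher in shZMYND8 and 1.99-fold higher in shJARID1D. For PSMB8 to PSMB5 the ratio was 1.74-fold and 1.58-fold higher, and for PSMB10 to PSMB7 it was 1.66-fold and 1.40-fold higher. For all 3 pairs both knockdowns lay above the controls without overlap, and shZMYND8 and shJARID1D overlapped for PSMB9 to PSMB6 and PSMB8 to PSMB5 but not for PSMB10 to PSMB7. The log2 ratio of PSMB9 to TAP1, the divergent neighbours, was -2.57 and -2.95 in shLuciferase, -2.63 and -2.66 in shZMYND8, and -2.15 and -2.30 in shJARID1D. Only the shJARID1D libraries stood apart from the controls there, 1.45-fold higher. These ratios are compared between libraries only, since gene lengths were not used.

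**Figure D3:**
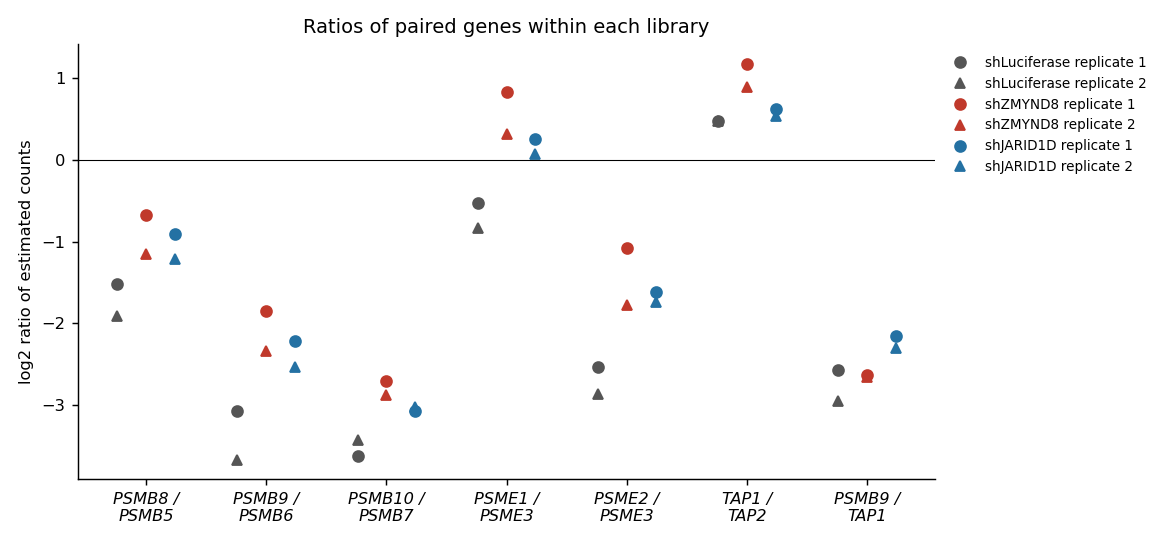
Log2 ratio of the counts of 2 genes within each library, for the inducible against the constitutive proteasome subunits and the other pairs computed, with groups by colour and replicates by shape. For PSMB9 to PSMB6 the controls lie at -3.08 and -3.67 and all 4 knockdown libraries lie above them.

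Of the class I molecule itself, the members hold the heavy chain HLA-E and the light chain B2M. HLA-E measured 158.5 and 160.9 CPM in shLuciferase, 327.7 and 236.0 CPM in shZMYND8, and 228.6 and 244.2 CPM in shJARID1D. The controls were the lowest and the knockdown groups overlapped. HLA-E rose in shZMYND8 (log2 fold change 0.82 ± 0.15 SE, edgeR adjusted p = 0.00717), and its 0.57 ± 0.15 in shJARID1D did not pass (adjusted p = 0.0615). B2M measured 1021 and 731.2 CPM in shLuciferase, 1618 and 990.1 CPM in shZMYND8, and 1342 and 1212 CPM in shJARID1D. It was the only member whose shZMYND8 and control libraries overlapped, and its libraries spread by 1.40-fold in shLuciferase and 1.63-fold in shZMYND8. Its log2 fold changes of 0.57 ± 0.22 and 0.54 ± 0.22 did not pass (edgeR adjusted p = 0.112 and 0.178). Counts of HLA genes are uncertain, because estimated counts divide reads among near copies.

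The spread between the shZMYND8 libraries ran in 1 direction. Replicate 1 exceeded replicate 2 in 10 of 10 members, by 1.14-fold (TAPBP) to 1.63-fold (B2M and NLRC5), while 48.4% of all genes tested were higher in replicate 1. The corresponding count was 6 of 10 in shLuciferase and 5 of 10 in shJARID1D. Without shZMYND8 replicate 1, 6 of 10 members still rose and 3 calls were lost: TAP2 (log2 fold change 0.63, edgeR adjusted p = 0.097), PSMB10 (0.74, adjusted p = 0.0891) and HLA-E (0.56, adjusted p = 0.079). TAP1, TAPBP, PSMB8, PSMB9, NLRC5 and IRF1 passed without any 1 of the 6 libraries. B2M passed without shLuciferase replicate 1 (0.83, adjusted p = 0.0339) or shZMYND8 replicate 2 (0.88, adjusted p = 0.0412), and its log2 fold change was 0.17 without shZMYND8 replicate 1.

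With JARID1D lowered, the log2 fold changes of the members ran from 0.41 to 1.04. All 10 members lay above both controls in both shJARID1D libraries, an order that 27% of all genes showed. In edgeR 10 of 10 had an unadjusted p under 0.05, and the share of all genes with such a p was not computed. Only PSMB9, IRF1 and TAPBP passed over all genes, and PSMB9 alone reached 2-fold, against 1.2% of all genes called higher at that size. The 3 calls needed both shJARID1D libraries: without replicate 1 the edgeR adjusted p was 0.11 for PSMB9, 0.2 for IRF1 and 0.289 for TAPBP, and without replicate 2 it was 0.086, 0.122 and 0.137. Then 0 of 10 members passed in edgeR, with 9 and 6 at an unadjusted p under 0.05. TAPBP was also lost without shLuciferase replicate 2 (adjusted p = 0.0857) or either shZMYND8 library (0.0783 and 0.0818), and PSMB10 passed without shLuciferase replicate 2 (0.70, adjusted p = 0.0321). DESeq2 called 6 of the 10, and limma voom called 3.

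**Figure D4:**
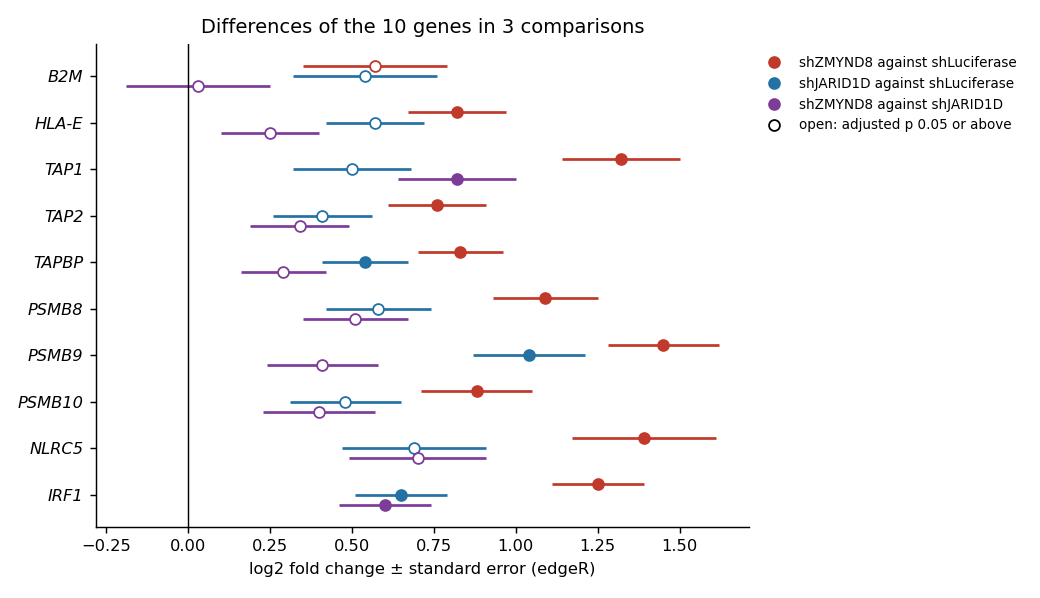
Log2 fold change of each member with its standard error (bar), filled where the adjusted p is under 0.05, in shZMYND8 against shLuciferase, shJARID1D against shLuciferase and shZMYND8 against shJARID1D. The members lie between 0.57 and 1.45 in the first comparison, 0.41 and 1.04 in the next, and 0.03 and 0.82 in the direct comparison.

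Because both knockdowns were set against the same 2 controls, the difference between them was tested directly. TAP1 and IRF1 were higher in shZMYND8 than in shJARID1D, by log2 fold changes of 0.82 ± 0.18 SE (edgeR adjusted p = 0.015) and 0.60 ± 0.14 (adjusted p = 0.0188). The other 8 did not pass, and no member reached 2-fold. Of all genes, 8.67% were called higher in shZMYND8, 7.02% lower, and 2.36% higher by at least 2-fold. The mean CPM ran from shLuciferase through shJARID1D to shZMYND8 in all 10 members, and the share of all genes in this order was not computed. In B2M the order rested on shZMYND8 replicate 1: shZMYND8 measured 1618 and 990.1 CPM and shJARID1D 1342 and 1212 CPM. Both shZMYND8 libraries lay above both shJARID1D libraries in 8 of 10, against 32.7% of all genes, with B2M and HLA-E as the exceptions. B2M differed by 0.03 ± 0.22 (adjusted p = 0.945). PSMB8 (0.51 ± 0.16, adjusted p = 0.0575) and NLRC5 (0.70 ± 0.21, adjusted p = 0.0532) fell just short. The TAP1 call was lost without shJARID1D replicate 1 (0.73, adjusted p = 0.111), shJARID1D replicate 2 (0.91, 0.0652) or shZMYND8 replicate 1 (0.53, 0.131). The IRF1 call was lost without shJARID1D replicate 1 (0.65, 0.0955), shJARID1D replicate 2 (0.56, 0.145) or shZMYND8 replicate 1 (0.43, 0.174). In those fits edgeR called 0 members, with 4, 6 and 2 at an unadjusted p under 0.05. It called 5 without either shLuciferase library and 4 without shZMYND8 replicate 2.

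The other heavy chains rose with the members in shZMYND8. Of 5 heavy chain genes listed, 4 had enough counts to be tested and all 4 rose, beside 8.89% of all genes. Their median log2 fold change was 0.97. Leaving out shZMYND8 replicate 1 left 2 of these calls, and leaving out shLuciferase replicate 1 or shJARID1D replicate 2 left 3. HLA-B, which presents peptides to T cells, measured 338.2 and 349.5 CPM in shLuciferase, 824.6 and 541.8 CPM in shZMYND8, and 494.5 and 480.9 CPM in shJARID1D, with a log2 fold change of 0.99 ± 0.18 SE in shZMYND8 (edgeR adjusted p = 0.00559). The nonclassical HLA-F, at 24.7 and 28.8 CPM in shLuciferase and 111.5 and 59.5 CPM in shZMYND8, was 3.19-fold higher (1.68 ± 0.25, adjusted p = 0.00238). In shJARID1D, HLA-F was the only heavy chain called (1.05 ± 0.25, edgeR adjusted p = 0.0402), and not without either shJARID1D library (0.203 and 0.11) or without shLuciferase replicate 1 (0.0575).

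Peptide trimming and loading genes moved unevenly in shZMYND8: 4 of 9 rose and none fell, beside 8.89% and 7.34% of all genes. Their median log2 fold change was 0.22. The endoplasmic reticulum peptidases ERAP1 and ERAP2, which shorten peptides for class I, rose by 1.17 ± 0.12 SE and 1.07 ± 0.16 (edgeR adjusted p = 0.000601 and 0.00247). TAPBPL, a tapasin relative that edits the bound peptide, rose by 1.24 ± 0.19 (adjusted p = 0.00297), and LNPEP, an endosomal peptidase, by 0.63 ± 0.11 (adjusted p = 0.00558, and 0.0791 without shZMYND8 replicate 1). The general chaperones CALR and CANX and the disulfide isomerase PDIA3 had log2 fold changes of 0.22, 0.16 and -0.29 (adjusted p = 0.232, 0.398 and 0.153). PDIA3 depended on the controls, with a log2 fold change of -0.42 without shLuciferase replicate 2. ERAP1 measured 103.7 and 89.0 CPM in shLuciferase, 227.7 and 207.1 CPM in shZMYND8, and 126.6 and 125.5 CPM in shJARID1D. It was higher in shZMYND8 than in shJARID1D (0.79 ± 0.12, adjusted p = 0.0037) and passed with any 1 library left out. None of the 9 passed in shJARID1D in the edgeR fit of all 6 libraries, with 4 at an unadjusted p under 0.05 and 1 called lower by DESeq2. ERAP1 depended on the controls there, with a log2 fold change of 0.5 without shLuciferase replicate 1.

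The other proteasome genes were given by 3 lists, of which 3 of 9, 0 of 11 and 1 of 17 genes were called in shZMYND8, beside 8.89% of all genes called higher and 7.34% lower. Of 9 activator and assembly genes, PSME1 and PSME2, the subunits of the inducible activator cap, rose by 0.94 ± 0.13 SE and 0.97 ± 0.17 in shZMYND8 (edgeR adjusted p = 0.00207 and 0.00498, the latter 0.0583 without shZMYND8 replicate 1). PSME3, which forms an alternative nuclear cap, had a log2 fold change of -0.32 (adjusted p = 0.111), and the assembly chaperone PSMG1 fell by 0.44 (adjusted p = 0.0245), a call lost without either shZMYND8 library (0.194 and 0.125) or either shJARID1D library (0.0665 and 0.0612). Of the 11 structural 20S subunits, edgeR, DESeq2 and limma voom each called 0 in shZMYND8 with all 6 libraries. In edgeR 1 had an unadjusted p under 0.05, and the median was 0.04. PSMA7 depended on the controls, with a log2 fold change of -0.52 without shLuciferase replicate 1. Of 17 subunits of the 19S regulatory particle, 1 was called: PSMD14 fell by 0.44 (adjusted p = 0.035), a call lost without either shZMYND8 library (0.224 and 0.15), either shJARID1D library (0.0728 and 0.0654) or shLuciferase replicate 2 (0.0702). In shJARID1D the edgeR fit of all 6 libraries called 0 genes in these 3 lists, with 4, 0 and 3 at an unadjusted p under 0.05. DESeq2 called 1 higher and 1 lower among the activators and 0 in the others. The absence of edgeR calls depended on the controls. Without shLuciferase replicate 1 the log2 fold changes were 0.51 (PSME1), 0.71 (PSME2), -0.49 (PSME3), -0.46 (PSMA7), -0.57 (PSMD2) and -0.55 (PSMD3). Without shLuciferase replicate 2 that of PSMC6 was -0.46. The log2 ratio of PSME1 to PSME3 was -0.52 and -0.83 in shLuciferase, 0.83 and 0.32 in shZMYND8, and 0.26 and 0.08 in shJARID1D. All 4 knockdown libraries lay above both controls. Of 5 cytosolic peptidases, 1 rose, 1 fell and 3 did not pass in shZMYND8, beside 8.89% of all genes called higher and 7.34% lower. The median log2 fold change of these 5 was 0.03. Among the cytosolic peptidases, LAP3, an interferon-inducible aminopeptidase, rose by 1.05 ± 0.19 (adjusted p = 0.00606), and THOP1, which degrades class I peptides, fell by 0.79 ± 0.19 (adjusted p = 0.0224, and 0.172 and 0.0843 without shZMYND8 replicate 1 and 2).

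**Figure D5:**
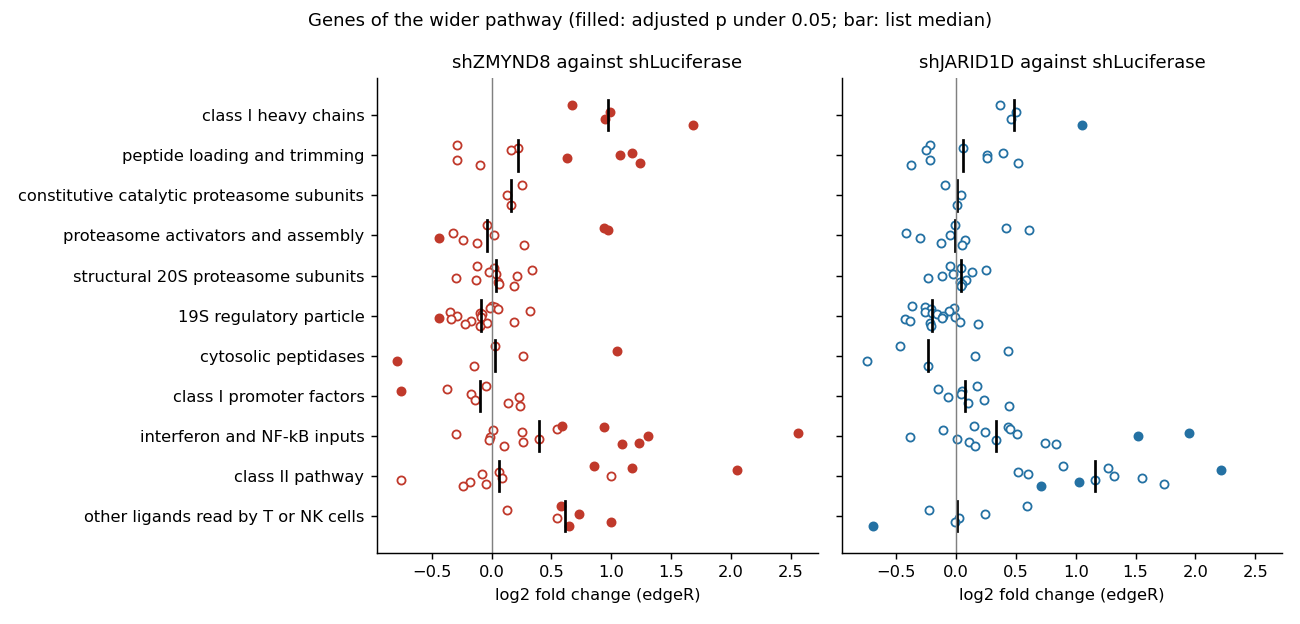
Log2 fold changes of the genes of the 11 pathway lists, 1 row per list, for shZMYND8 (left) and shJARID1D (right) against shLuciferase, with calls filled and the list median as a bar. The heavy chains have a median of 0.97 in shZMYND8, while the structural 20S subunits, with a median of 0.04, lie at the level of all genes.

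Several upstream interferon genes also rose. Of 15 genes of interferon and NF-kB input, 6 rose in shZMYND8 and none fell, beside 8.89% and 7.34% of all genes. Their median was 0.40. IRF7 and IRF9, transcription factors of the interferon response, rose by 2.56 ± 0.27 SE and 1.31 ± 0.21 in shZMYND8 (edgeR adjusted p = 0.000601 and 0.0033). Both also rose in shJARID1D, by 1.95 and 1.52 (adjusted p = 0.00805 and 0.00833). Without shJARID1D replicate 1 the adjusted p was 0.0662 for each, and without replicate 2 it was 0.0531 for IRF9. The 8 factors that assemble with NLRC5 at class I promoters, or bind nearby, included 1 call in shZMYND8, a fall, beside 7.34% of all genes. NFYA, the DNA-contacting subunit of the CCAAT-binding complex, measured 57.2 and 57.9 CPM in shLuciferase, 32.8 and 35.1 CPM in shZMYND8, and 57.9 and 61.4 CPM in shJARID1D. It fell by 0.76 on the log2 scale against the control (edgeR adjusted p = 0.00251) and by 0.81 against shJARID1D (adjusted p = 0.00244), and passed with any 1 library left out. In shJARID1D edgeR called 0 of the 8, with 0 at an unadjusted p under 0.05, and DESeq2 and limma voom called 0.

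The genes whose level over the 6 libraries most resembled the members were named by Pearson's r with the mean standardised log2 CPM of the members, among the 11467 genes averaging at least 5 CPM. They were NFKBIA, an inhibitor of NF-kB (r = 0.994), DYNC2LI1, a light chain of a cilium motor (0.993), PARP12, an interferon-inducible ADP-ribosyltransferase (0.993), the transcription factor TFAP2C (0.993) and TMEM243 (0.992). These values describe 6 libraries that share 3 treatments, and with so many genes searched they carry no test. NFKBIA measured 396.2 and 392.6 CPM in shLuciferase, 629.3 and 539.3 CPM in shZMYND8, and 484 and 522.4 CPM in shJARID1D, a rise of 0.57 ± 0.12 SE in shZMYND8 (edgeR adjusted p = 0.013, and 0.142 without shZMYND8 replicate 1). PARP12 rose by 1.13 ± 0.17 (adjusted p = 0.0025) and TMEM243 by 0.58 (0.0232, but 0.213 and 0.0642 without shZMYND8 replicate 1 and 2). DYNC2LI1 (0.45, adjusted p = 0.067) and TFAP2C (0.31, 0.128) did not pass, in this or either other comparison. Among the members themselves, r with this mean, of which each is part, ran from 0.801 for B2M to 0.997 for PSMB8.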

How the data were processed

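RNA-seq of 6 DU145 libraries was analysed, and the 29 other samples of the series were not analysed here. The authors deposited a Cuffdiff table of expected counts (estimated fragments per gene and library, per the file headers). Bowtie 1.1.2, TopHat2 2.0.12, Cuffdiff, edgeR 3.12.0 and the build hg19 are named in the submitters' processing notes. The sources used here do not say which step each served, which annotation was used or whether strand was kept, so genes that overlap or lie antisense to another are uncertain. The deposited values carry a scaling: 1 fragment had a value of 0.881 to 1.16. Columns named Rac7_KO were taken as shZMYND8, since an antibody label of the series gives RACK7 as another name of ZMYND8. The 18 variance columns were not used.

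Expected counts were rounded to whole numbers. The 60 genes marked as not quantified in at least 1 library were left out, which left 28443, and none of the genes listed here was among them. The test was the quasi-likelihood F test of edgeR 4.0.16 (R 4.3.3), after filterByExpr and with factors from the trimmed mean of M values. All 6 libraries were in 1 fit with 3 residual and 6.83 prior degrees of freedom, and a Benjamini-Hochberg adjusted p under 0.05 over 15867 genes was called. SE values were derived from the test, as the absolute log2 fold change divided by the square root of the F statistic. "Rose" and "fell" are used for genes that passed. Counts at an unadjusted p under 0.05 are given without the share of all genes, which was not computed. Other choices tried were scaling by library totals only, by upper quartile or by relative log expression, the deposited scaling undone, no filter or a mean count of at least 50, unquantified genes kept, DESeq2 1.42.0, voom of limma 3.58.1, only the groups compared, a replicate block, each library left out, an adjusted p under 0.01, and an absolute log2 fold change of at least 1. The script was also tested on simulated data.

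The 10 members and the 11 lists (101 genes) were chosen with earlier results of these data known. A few list and marker genes are not reported here. Named were all members, the targets, up to 4 genes per list and comparison by smallest adjusted p, a fixed set of pathway genes, and the 5 genes most like the members. PSME3, the chaperones CALR, CANX and PDIA3, and the class II genes were singled out after their values were seen where this rule does not name them. Tables and figures were made with Python 3.11.15.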

Additional observations from a re-analysis of the deposited data

How the results depend on the processing

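Of the alternatives run on single members in the 3 comparisons, 500 values kept direction and side of the threshold, 36 lost the call, 29 gained it and 5 changed sign. All 5 were B2M in shZMYND8 against shJARID1D: its 0.03 became -0.02 with library totals only, -0.01 with limma voom and -0.01 with a replicate block, and with 1 library left out it ranged from -0.37 to 0.34, being -0.05 without shJARID1D replicate 2 and -0.37 without shZMYND8 replicate 1. No member fell in any alternative of edgeR, DESeq2 or limma voom, with 0 lower at an unadjusted p under 0.05. Library totals only moved the median of all genes from 0.00 to 0.09 in shJARID1D.

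Members rising in shZMYND8 numbered 9, 6 to 10 with 1 library left out, and 5 with an absolute log2 fold change of at least 1. In shJARID1D the 3 became 6 with DESeq2, 5 with library totals only, 0 with no filter on low counts (9 at an unadjusted p under 0.05), 0 at an adjusted p under 0.01, 1 at a log2 fold change of at least 1, and 0 to 3 with 1 library left out. In the direct comparison the 2 became 4 with DESeq2, 5 with only the groups compared, 0 at 0.01, 0 at a log2 fold change of at least 1, and 0 to 5 with 1 library left out. The cause was not tested, beyond the fewer samples or stricter rule.

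Pathway list genes called numbered 28 in shZMYND8, with 18 at 0.01, 12 at a log2 fold change of at least 1, and 13 to 29 with 1 library left out. In shJARID1D the 7 became 17 with DESeq2, 14 with library totals only, 2 with no filter, 2 at 0.01, and 0 to 21 with 1 library left out. In the direct comparison the 17 became 9 with no filter, 32 with only the groups compared, 5 at 0.01, 5 at a log2 fold change of at least 1, and 5 to 31 with 1 library left out.

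Whether the replicate numbers pair the libraries was not settled. Same-numbered libraries deviated together with r = 0.0925, 0.17 and 0.0969 over 15867 genes, and no threshold was set for these values. Without a replicate block, members called numbered 9, 3 and 2 in the 3 comparisons. With a replicate block, members called numbered 10, 7 and 4 in shZMYND8, shJARID1D and the direct comparison, list genes in shJARID1D 27 and in the direct comparison 33, and genes in all 2073 and 3785.

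Genes called in either direction over the whole table numbered 2574, 912 and 2490. In shZMYND8 they became 642 and 1005 without shZMYND8 replicate 1 and 2, 1002 at 0.01 and 803 at a log2 fold change of at least 1. In shJARID1D they became 204 with no filter, 449 with only the groups compared, 77 at 0.01, 239 at a log2 fold change of at least 1, 16 and 22 without shJARID1D replicate 1 and 2, 2145 without shLuciferase replicate 1, and 407 and 394 without shZMYND8 replicate 1 and 2. In the direct comparison the first 4 of these became 1560, 4252, 761 and 635, and leaving out 1 library gave 602 and 551 (shZMYND8), 627 and 632 (shJARID1D) or 4191 and 4179 (shLuciferase).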

Other observations

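The MHC class II pathway, which presents peptides taken up from outside the cell and is given by a list of 13 genes, was also followed. CIITA, its master activator and a relative of NLRC5, was low in every group, at 0.851 and 1.24 CPM in shLuciferase, 2.40 and 2.32 CPM in shZMYND8, and 2.998 and 2.057 CPM in shJARID1D. Its log2 fold change in shZMYND8 was 1.17 ± 0.34 SE (edgeR adjusted p = 0.0423, and 0.191 and 0.158 without shZMYND8 replicate 1 and 2, 0.127 without shLuciferase replicate 1 and 0.0525 without shJARID1D replicate 1). In shZMYND8 3 of the 11 tested genes were called higher, CIITA and CTSS among them, and none lower, beside 8.89% and 7.34% of all genes. Their median log2 fold change there was 0.06 over the 11 genes. In shJARID1D all 11 tested genes lay above both controls, an order that 27% of all genes showed, with a median log2 fold change of 1.16. Of these, CTSS, HLA-DRB1 and HLA-DQB1 passed, beside 2.96% of all genes called higher. The HLA-DRB1 call was lost in 5 of 6 fits with 1 library left out, over which its log2 fold change was 0.63 to 0.79. CTSS, a lysosomal protease that trims the class II chaperone, measured 1.66 and 1.20 CPM in shLuciferase, 8.18 and 3.69 CPM in shZMYND8, and 7.41 and 5.83 CPM in shJARID1D, so both knockdowns lay above the controls. Its log2 fold changes were 2.05 in shZMYND8 (edgeR adjusted p = 0.00695, but 1.36 and 0.0613 without shZMYND8 replicate 1) and 2.21 in shJARID1D (0.0166, but 0.121 and 0.0585 without shJARID1D replicate 1 and 2). HLA-DQB1, a class II beta chain, measured 4.34 and 4.28 CPM in shLuciferase, 4.32 and 3.30 CPM in shZMYND8, and 9.25 and 8.40 CPM in shJARID1D. It rose in shJARID1D (1.03 ± 0.20, edgeR adjusted p = 0.023) and was lower in shZMYND8 than in shJARID1D by a log2 fold change of -1.21 ± 0.20 (adjusted p = 0.00548). HLA-DRB1 was likewise lower in that direct comparison (-0.95 ± 0.17, adjusted p = 0.00747). Of the 11 class II genes, 4 were called lower in shZMYND8 than in shJARID1D and none higher, beside 7.02% and 8.67% of all genes. Without either shJARID1D library edgeR called 0 class II genes against the control, with 5 and 11 at an unadjusted p under 0.05. When shZMYND8 replicate 2 was left out it called 0 in the direct comparison, where HLA-DQB1 had an adjusted p of 0.0646 and HLA-DRB1 0.0801 (0.053 without shJARID1D replicate 2).

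Of 6 ligands that natural killer or T cells read, 4 were called higher in shZMYND8 (MICB, ULBP2, ULBP3 and CD274) and 1 lower in shJARID1D (ULBP3). The shares of all genes so called were 8.89% and 2.79%. ULBP2 had a log2 fold change of 1.00 (edgeR adjusted p = 0.028), ULBP3 of 0.65 (0.0274) and CD274 of 0.58 (0.0378) in shZMYND8, and these 3 calls were lost without shZMYND8 replicate 1 (0.174, 0.12 and 0.239), shZMYND8 replicate 2 (0.12, 0.176 and 0.121) or shLuciferase replicate 1 (0.0591, 0.0516 and 0.0817). The CD274 call was also lost without either shJARID1D library (0.0566 and 0.0624), and the ULBP2 call without shLuciferase replicate 2 (0.0525). The ULBP3 call in shJARID1D (-0.70, adjusted p = 0.0488) was lost in 5 of 6 such fits, at 0.0777 to 0.243. ULBP3, a ligand of the receptor NKG2D, measured 6.85 and 7.19 CPM in shLuciferase, 10.6 and 11.5 CPM in shZMYND8, and 4.33 and 4.33 CPM in shJARID1D. The groups lay apart, with shJARID1D lowest, and shZMYND8 exceeded shJARID1D by a log2 fold change of 1.35 ± 0.17 SE (edgeR adjusted p = 0.00176), and passed with any 1 library left out. MICB, another such ligand, rose by 0.73 ± 0.12 in shZMYND8 (adjusted p = 0.00365), while MICA had 0.13.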
